A study of Mus musculus with 6 samples.

Results

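Rods detect light with an outer segment, a stack of membrane discs that holds the visual pigment and the proteins of the phototransduction cascade. The genes described here are 34 genes for that cascade and for building and maintaining the outer segment, taken by symbol from a fixed list out of the 32285 genes in the files. All 34 were found. They were followed in rod nuclei of C57BL/6J mouse retina, with the 10x multiome assay, in which each nucleus yields both an RNA and an open-chromatin (ATAC) profile. The study had 3 groups: a naïve wild-type control that received no vector, retina given AAV2/2 for WIF1 overexpression at 2 weeks, and the same at 4 weeks. WIF1 (Wnt inhibitory factor) is secreted and blocks Wnt ligands by binding them. The times are labelled AVI, an abbreviation the labels do not expand, and sex and age are not given in the sources used here. The design names 2 Wif1 vectors, both with a CMV promoter and an HA tag and 1 also with an IRES-GFP reporter, and does not say which was used for these nuclei. CMV is not specific to a cell type. The control lacked injection, vector and WIF1 together, so these cannot be told apart, and no library of the empty GFP vector was analysed here. Each group was 1 library from 2 eyes, with no statement on pooling. There are therefore no replicates and no tests, and each difference describes these libraries. The 95% intervals cover counting error only.

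In the dark, cyclic GMP holds channels in the rod plasma membrane open. Light-activated pigment turns on the G protein transducin, which turns on the phosphodiesterase that breaks down cyclic GMP, and the channels close. Arrestin, a pigment kinase and a GTPase-accelerating protein end the response, and guanylate cyclases with calcium-sensing activators restore cyclic GMP. The cascade proteins are made in the inner segment and pass through a connecting cilium to the outer segment, whose discs are renewed throughout life. Mutations in many of these genes cause inherited retinal degeneration.

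Rod genes carry binding sites of the transcription factors CRX and NRL close to their starts. The 250 bases upstream of the start are shown for 4 members that the results turn on, from RefSeq (GRCm38.p6), written 5′ to 3′ on the gene's own strand and ending just before the start. Sag (chr1:87803430-87803679, plus strand) had more RNA at 2 weeks and more promoter counts at both times, Gucy2f (chrX:142196937-142197186, minus strand) had less RNA at 2 weeks and more at 4 weeks, Rom1 (chr19:8929357-8929606, minus strand) had less RNA at both times, and Aipl1 (chr11:72037510-72037759, minus strand) had fewer promoter counts at both times. All 250 bases lay within peaks called in every library for each of the 4. Capitals mark TAATCC, the core of the CRX site, and TGCTGA, the core of the NRL site, or their reverse complements.
Sag: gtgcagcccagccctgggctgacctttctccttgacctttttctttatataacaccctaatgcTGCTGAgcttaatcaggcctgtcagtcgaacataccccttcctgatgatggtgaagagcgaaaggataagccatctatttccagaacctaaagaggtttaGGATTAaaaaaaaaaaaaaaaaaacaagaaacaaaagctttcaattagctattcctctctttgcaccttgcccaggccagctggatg
Gucy2f: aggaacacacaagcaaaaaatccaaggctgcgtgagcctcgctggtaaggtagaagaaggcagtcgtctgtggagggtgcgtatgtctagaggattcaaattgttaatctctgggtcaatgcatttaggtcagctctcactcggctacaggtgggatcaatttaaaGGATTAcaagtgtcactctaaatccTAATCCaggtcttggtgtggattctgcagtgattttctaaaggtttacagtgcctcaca
Rom1: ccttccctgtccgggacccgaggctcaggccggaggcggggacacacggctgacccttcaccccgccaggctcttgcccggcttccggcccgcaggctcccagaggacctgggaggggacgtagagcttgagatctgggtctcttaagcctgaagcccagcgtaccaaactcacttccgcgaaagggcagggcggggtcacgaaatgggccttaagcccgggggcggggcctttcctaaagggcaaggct
Aipl1: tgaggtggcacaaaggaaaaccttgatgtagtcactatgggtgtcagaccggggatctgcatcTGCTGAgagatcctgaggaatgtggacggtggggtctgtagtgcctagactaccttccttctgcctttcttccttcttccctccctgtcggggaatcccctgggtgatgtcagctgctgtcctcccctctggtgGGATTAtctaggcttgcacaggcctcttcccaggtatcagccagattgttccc
The Sag and Aipl1 windows each hold both motifs, the Gucy2f window holds TAATCC on both strands, and the Rom1 window holds neither. The nearest CRX core ended 82 bases before the start in Sag, 54 in Gucy2f and 48 in Aipl1. Of the 34 members, 26 had an entry in the promoter table. TAATCC on either strand was present in 11 of these 26 (42.3%), against 7.21% of the 27025 genes in the table. TGCTGA was present in 7 of 26 (26.9%), against 18% of all genes. Both motifs were present in 5 of 26 (19.2%), against 1.37%, counted per gene over all of its windows. In Mpp4 and Unc119 the motifs lay in different windows of the gene. A match is a run of letters and not a measured binding site.

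The libraries differed in ways that touch every value below. Kept nuclei numbered 7172 in the control library, 8848 at 2 weeks and 8921 at 4. Of these, 4099, 4770 and 5930 were rod-like by markers such as Nrl, Nr2e3 and Esrrb, none of them a member, and the members were left out of the genes used for clustering. The 8 rod markers summed to 4921, 5766 and 4811 CPM (UMIs of a gene, or unique molecular identifiers, scaled to a common total per library) in the rod-like nuclei, against 12.9, 4.37 and 2.22 for 9 retinal ganglion markers. Markers of neighbouring classes were higher in the same nuclei: 16 bipolar markers summed to 1634, 1682 and 1634 CPM, 12 cone markers to 1370, 1246 and 1331, and 13 amacrine markers to 570, 467 and 690. In these nuclei 13 Müller markers summed to 194, 286 and 182 CPM and 9 microglial markers to 38.2, 81.7 and 42.6, both highest at 2 weeks, and the part of any of these classes in the member ratios was not tested. Rod-like nuclei had median depths of 1165, 691 and 1028 UMIs, and totals of 5500491, 3658127 and 7213592 UMIs. Their median mitochondrial share was 1.14% in the control library, 0.326% at 2 weeks and 0.470% at 4. The control thus carried the most mitochondrial RNA and the 2-week library the least. The cluster with the most rods differed between libraries: a cluster led by Nrl, Kcnj14 and Nr2e3 held 45.0% of control rods, a cluster led by Vax2os held 42.2% at 2 weeks, and a cluster led by Cmah and Abca13 held 38.5% at 4 weeks. RefSeq places another gene over part of 16 members, such as Supt16 at Rpgrip1 and Glp2r at Rcvrn, and how strand was used in counting is not given in the sources used here, so reads of these pairs may be mixed. After filtering, 98 barcodes were shared by the control and 2-week libraries, 124 by the control and 4-week libraries and 144 by the WIF1 libraries.

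Across rod-like nuclei the 34 genes together took nearly the same share of RNA in the control and at 2 weeks, and a lower share at 4 weeks. The share of rod UMIs was 6.31% (6.29 to 6.33) for the control, 6.29% (6.27 to 6.32) for 2 weeks and 5.57% (5.55 to 5.58) for 4 weeks. Sag, singled out after its values were seen, took 0.839%, 1.20% and 0.828% of it, and the other 33 members took 5.47%, 5.09% and 4.74%, lower at both times. At 2 weeks 20 of 34 members were below the control and 14 above, beside 45.1% of all measured genes below. At 4 weeks 24 were below and 10 above, beside 43.6% of genes below. In rods with a mitochondrial share of 0.5 to 1.5% alone, 14 of 34 were lower than the control for the 2-week library and 25 for the 4-week library, and 8 and 7 members stood on the other side of the control than over all rods. No share over all genes stands beside these counts. Guca1a, Pde6b, Rgs9 and Rp1l1 at 2 weeks and Gucy2e and Rp1 at 4 weeks, whose counting intervals include a ratio of 1, turned below the control when scaled by the median ratio over genes. The median log2 ratio over members was -0.13 at 2 weeks (interval over members -0.21 to 0.04) and -0.16 at 4 weeks (-0.25 to -0.01), beside 0.04 over all measured genes at either time. The 2-week median was above 0 in rods with a mitochondrial share of at most 1%, at 0.07, and also in rods of the Cmah cluster alone (0.10), the Vax2os cluster alone (0.02), a cluster led by Abca13 and Slc22a29 (0.05) and rods with a share of 0.5 to 1.5% (0.03). Taking off the member UMIs found per bipolar-like nucleus moved the medians to 0.22 at 2 weeks and 0.08 at 4 weeks. Apart from that subtraction, the 4-week median was nearest to 0, at -0.0055 in rods of a cluster led by Fgf2os and Edn2 alone and -0.02 in rods with a share under 0.3%, and between -0.20 and -0.06 in the other alternatives run on rod-like nuclei. Within every single rod cluster it was nearer to 0 than over all rods, and furthest below in the Vax2os cluster, at -0.085.

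Few members passed 1.5-fold. At 2 weeks 0 of 34 were past 1.5-fold lower, where 6.85% of the 10425 measured genes were, and 0 of 34 were past 1.5-fold higher, against 11.3% of genes. At 4 weeks 2 of 34, Pde6g and Gngt1, were past 1.5-fold lower, against 4.63% of 10846 genes, and 0 were past it higher, against 2.3%. Members are abundant genes: among the 857 genes with at least as many UMIs as the least abundant member at 2 weeks, 5.95% were past 1.5-fold lower and 3.50% higher, and among the 953 such genes at 4 weeks 5.56% were lower and 0.105% higher. Past a ratio of 5 to 4, 7 members were lower at 2 weeks (17.4% of genes) and 4 higher (25.5%), while at 4 weeks 10 were lower (13.5%) and 0 higher (10.2%). Between 4 and 2 weeks 0 members were past 1.5-fold lower (12.3%) and 1, Gucy2f, was past it higher (7.49%).

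**Figure D1:**
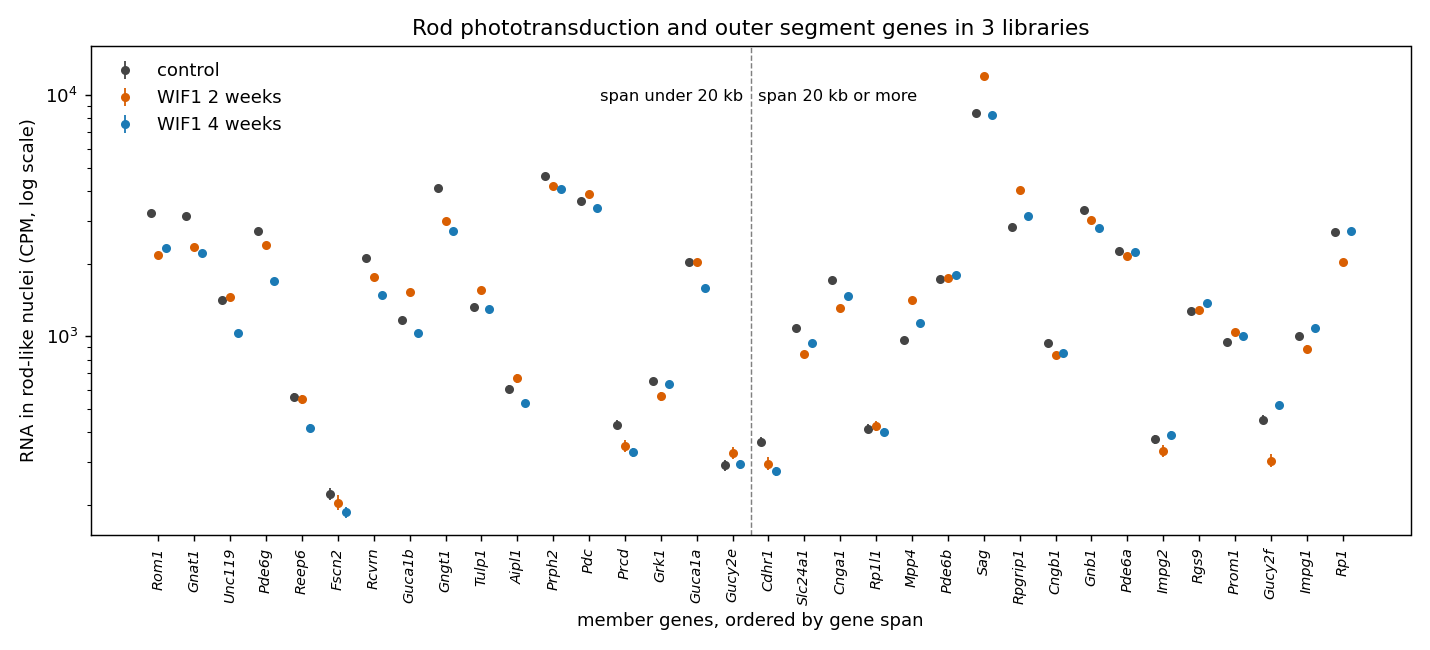
RNA of the 34 members in rod-like nuclei (CPM, log scale), ordered by gene span along the horizontal axis, with 1 point per library and bars for 95% counting intervals. Left of the dashed line (spans under 20 kb) the 4-week points lie mostly below the control, as for Pde6g at 1690 against 2733 CPM, and Sag stands out at 2 weeks with 12000 CPM.

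Transducin was lower in both WIF1 libraries, in all 3 subunits. Gnat1, the rod alpha subunit that carries the signal, was at 3165 CPM in the control library, 2333 at 2 weeks and 2221 at 4, ratios of 0.737 (0.718 to 0.757) and 0.702 (0.687 to 0.717). Gngt1 (ENSMUSG00000029663, chr6:3989082-3997436 in RefSeq, GRCm38.p6), the rod gamma subunit, was at 4125, 2996 and 2721 CPM in the same order, ratios of 0.726 (0.710 to 0.743) and 0.660 (0.647 to 0.672). In both genes the control was the high library and the WIF1 libraries lay close together. Gnb1, a beta subunit used in most cell types, was at 3347, 3027 and 2807 CPM, so its log2 ratios of -0.15 and -0.25 were smaller than those of the rod-specific subunits. In rods with a mitochondrial share of 0.5 to 1.5% (the middle bin), the 2-week ratios were 1.11 for Gnat1, 1.10 for Gngt1 and 1.02 for Gnb1, all above 1, while those at 4 weeks were 0.912, 0.896 and 0.911. With the member UMIs of bipolar-like nuclei taken off, the 4-week log2 ratio of Gngt1 was 0.02.

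The phosphodiesterase differed between its catalytic and inhibitory subunits. Pde6a and Pde6b, the catalytic pair, stayed near the control: Pde6a was at 2250, 2142 and 2232 CPM, and Pde6b at 1732, 1739 and 1791. Pde6g (ENSMUSG00000025386, chr11:120447607-120453500), the inhibitory subunit that transducin displaces, was at 2733 CPM in the control library, 2379 at 2 weeks and 1690 at 4. Its 4-week level was 0.618 of the control (0.604 to 0.633) and 0.711 of the 2-week level (0.691 to 0.730). No other member was further below the control at 4 weeks on the log2 scale (-0.69). In the middle mitochondrial bin Pde6g was at 1.26 times the control at 2 weeks and 0.774 at 4 weeks.

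Over all rods the cyclic GMP-gated channel and the exchanger were lower at both times, and Cnga1 and Slc24a1 were closer to the control at 4 weeks. Cnga1, the pore-forming subunit, was at 1710, 1312 and 1466 CPM, with a 2-week ratio of 0.767 (0.741 to 0.794). Its partner Cngb1, which modulates the channel, was at 937, 832 and 848 CPM. The 4-week level of Cngb1 was 1.02 times the 2-week level, with an interval that included 1 (0.976 to 1.065). Slc24a1, which extrudes calcium from the outer segment in exchange for sodium, was at 1083, 842 and 939 CPM, with a 2-week ratio of 0.777 (0.744 to 0.812). For Cnga1 and Slc24a1 the 4-week level lay between the other libraries. In the middle mitochondrial bin the 2-week ratios were 0.862 for Cnga1, 0.918 (0.832 to 1.012) for Cngb1 and 0.875 for Slc24a1. Those at 4 weeks were 0.951, 0.960 and 0.958, each with an interval that included 1.

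Among genes that end the light response, arrestin moved the other way at 2 weeks. Sag (ENSMUSG00000056055), the rod arrestin that binds the phosphorylated pigment, was at 8392 CPM in the control library, 12000 at 2 weeks and 8284 at 4. The 2-week library alone was high, at 1.43 times the control (1.41 to 1.45), and the 4-week level was 0.987 of the control (0.975 to 0.999), which turned slightly above the control after thinning to 500 UMIs. Rcvrn, a calcium sensor that restrains the pigment kinase, was at 2119, 1765 and 1477 CPM, highest in the control and lowest at 4 weeks, where its ratio was 0.697 (0.679 to 0.715). Grk1, the pigment kinase, was at 651, 563 and 632 CPM, with only the 2-week library low. Rgs9, which speeds GTP hydrolysis by transducin, was at 1273, 1283 and 1378 CPM. Pdc, phosducin, which binds transducin beta and gamma subunits, was at 3637, 3871 and 3387 CPM, above the control at 2 weeks and below it at 4 weeks over all rods. In the middle mitochondrial bin Pdc was above it at both times, with ratios of 1.24 and 1.04 (1.002 to 1.08).

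The 2 guanylate cyclases showed different patterns. Gucy2f, on the X chromosome, was at 451 CPM in the control library, 305 at 2 weeks and 519 at 4. Its 2-week ratio was 0.675 (0.629 to 0.725) and its 4-week ratio 1.15 (1.09 to 1.21), so the 4-week level was 1.70 times the 2-week level (1.59 to 1.82). Gucy2e was at 291, 328 and 294 CPM, highest at 2 weeks. The cyclase activators, which sense calcium, also parted: Guca1b was at 1163, 1528 and 1027 CPM, with a 2-week ratio of 1.31 (1.27 to 1.36), whereas Guca1a was at 2022, 2039 and 1577, level at 2 weeks over all rods and 0.780 of the control (0.7595 to 0.8004) at 4 weeks. In the middle bin Guca1a was at 1.15 times the control at 2 weeks (1.08 to 1.23) and 0.846 at 4 weeks. Guca1a and Guca1b lie next to each other in GRCm38.p6, at chr17:47394557-47413514 and chr17:47384694-47392967.

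Of the 8 genes of disc and outer segment structure, 6 were lower at 2 weeks and 6 at 4 weeks. Rom1, a tetraspanin of the disc rim, was at 3248 CPM in the control library, 2175 at 2 weeks and 2318 at 4, with ratios of 0.670 (0.652 to 0.688) and 0.714 (0.699 to 0.729). Both WIF1 libraries were low and close together, also in the middle mitochondrial bin, where the ratios were 0.852 and 0.802. Its partner Prph2, which shapes the rim with it, was at 4623, 4199 and 4089 CPM, ratios of 0.908 and 0.885. Rp1, a microtubule protein of the axoneme and with a span of 293.6 kb the longest member, was at 2701, 2025 and 2726 CPM. Only the 2-week library was low for Rp1, with a ratio of 0.749 (0.729 to 0.771), against 1.01 (0.988 to 1.03) at 4 weeks. Its relative Rp1l1 was at 413, 424 and 401 CPM.

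Prom1, found where new discs evaginate, was at 948, 1038 and 1002 CPM, above the control at both times. Rp1l1 was the other member of this group above the control at 2 weeks, by less than its counting interval (0.962 to 1.095). Cdhr1, a cadherin at the base of the outer segment, was at 365, 296 and 275 CPM, with ratios of 0.811 (0.752 to 0.873) and 0.753 (0.707 to 0.801). Prcd, a small disc membrane protein, was at 429, 351 and 330 CPM. Fscn2, an actin-bundling protein, was at 222, 204 and 186 CPM, and its 2-week interval (0.839 to 1.01) included 1. In Cdhr1 and Prcd the control was the high library over all rods. That did not hold in the middle mitochondrial bin, where the ratios were 1.14 and 1.02 for Prcd and 0.995 and 0.888 for Cdhr1, each with an interval that included 1.

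The 5 genes for making and delivering outer segment proteins were all lower at 4 than at 2 weeks, beside 54.6% of all measured genes. All but Rpgrip1 span under 20 kb, and measured genes of such span had a median log2 ratio of -0.26 between these times. The count is therefore not read as particular to these 5 genes. Against the control, Rpgrip1, Tulp1 and Aipl1 had intervals above 1 at 2 weeks, and Aipl1, Unc119 and Reep6 had intervals below 1 at 4 weeks. Rpgrip1, a scaffold of the connecting cilium, was at 2831 CPM in the control library, 4052 at 2 weeks and 3153 at 4, with ratios of 1.43 (1.40 to 1.46) and 1.11 (1.09 to 1.14). Tulp1, which takes part in transport to the outer segment, was at 1316, 1555 and 1295 CPM, high at 2 weeks alone. Aipl1, the chaperone of the phosphodiesterase, was at 606, 668 and 529 CPM, on opposite sides of the control at the 2 times; in the middle mitochondrial bin its ratios were 1.21 and 0.915 (0.835 to 1.002). Unc119, which carries lipid-bound transducin, was at 1412, 1456 and 1029 CPM, level at 2 weeks over all rods and 0.729 of the control (0.706 to 0.752) at 4 weeks. Reep6, which acts in membrane trafficking, was at 561, 547 and 417 CPM, with a 4-week ratio of 0.744 (0.708 to 0.783). In the middle bin the 2-week ratios were above 1, at 1.28 (1.18 to 1.38) for Unc119 and 1.34 (1.18 to 1.51) for Reep6, and the 4-week ratios were 0.870 and 0.916.

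The matrix genes and the terminal gene stayed within 1.5-fold as well. Impg1 and Impg2 encode proteoglycans of the matrix around the outer segments. Impg1 was at 999, 888 and 1086 CPM and Impg2 at 374, 334 and 390, both lowest at 2 weeks. In the middle mitochondrial bin the Impg1 ratios were 0.807 and 0.983. Mpp4, a scaffold protein of the rod synaptic terminal, was at 967, 1414 and 1133 CPM, with ratios of 1.46 (1.41 to 1.52) and 1.17 (1.13 to 1.21). With Sag and Rpgrip1, Mpp4 was among the 3 members furthest above the control at 2 weeks, and all 3 are long genes by the split that follows.

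Members were also described by gene span, because nuclear RNA of long genes is largely unspliced while spliced RNA of short genes can also come from cytoplasm left on a nucleus. The files do not separate spliced from unspliced reads, so span stands in. Of the 34 members, 17 span under 20 kb and 17 span 20 kb or more. At 4 weeks the groups parted: 16 of 17 short members were below the control, Gucy2e being the exception at 0.01 (and below 0 when scaled by the median ratio), with a median log2 ratio of -0.36 (-0.49 to -0.18), against 8 of 17 long members and a median of 0.01 (-0.14 to 0.11). Within single rod clusters the 4-week median of the short members ran from -0.13, in the Cmah cluster, to -0.43, in a cluster with 17 control rods. Over all rods at 2 weeks the groups did not part: 10 of 17 were lower in each group, with medians of -0.12 and -0.15. All genes as abundant as the members parted in the same direction at 4 weeks: 186 short genes had a median of -0.35 and 735 long genes 0.14. At 2 weeks the medians were -0.12 for 191 short and -0.04 for 633 long genes. Over all measured genes of any level the medians were -0.09 for short and 0.10 for long genes at 4 weeks, and 0.14 and near 0 at 2 weeks.

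**Figure D2:**
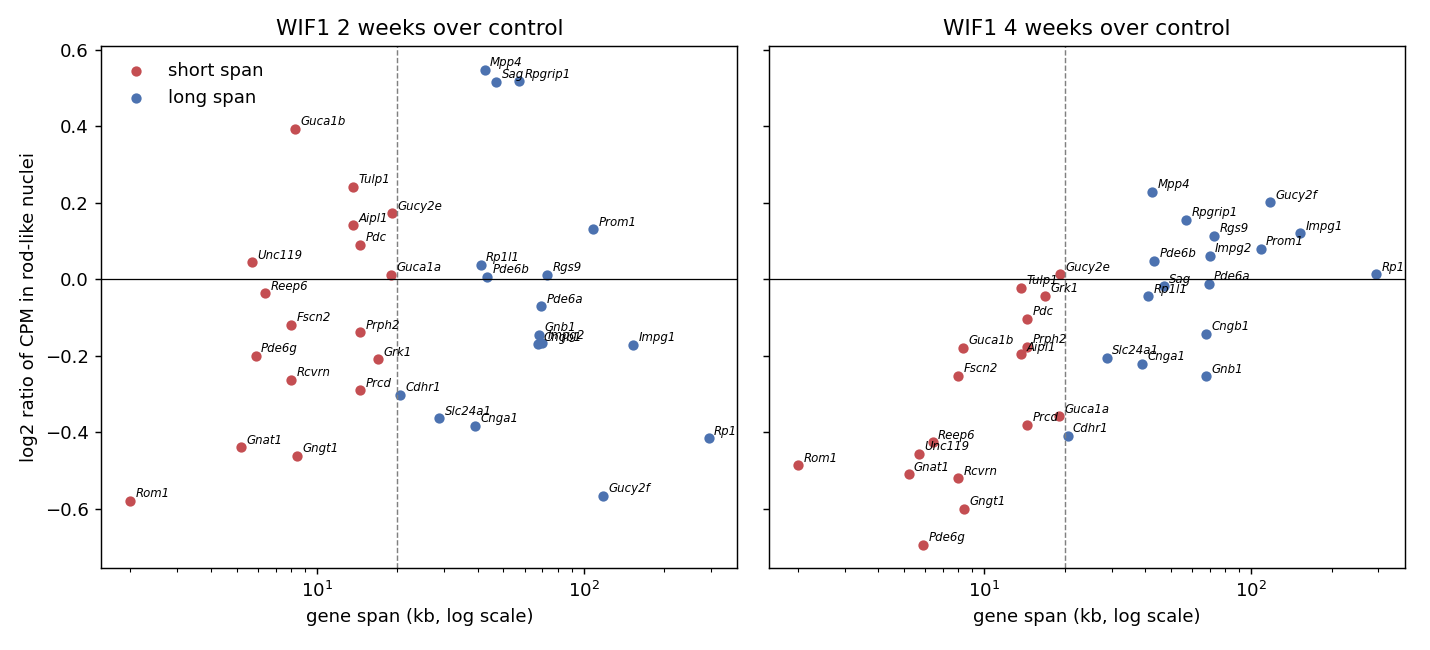
Log2 ratio of CPM in rod-like nuclei over the control against gene span (kb, log scale), with 1 point per member, at 2 weeks (left) and 4 weeks (right); the dashed line is at 20 kb. At 4 weeks 16 of 17 short members lie below 0, down to -0.69 for Pde6g, while the long members have a median of 0.01; at 2 weeks both groups spread widely around medians of -0.12 and -0.15.

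The mitochondrial share of a nucleus, a measure of cytoplasm carried with it, moved with the short members in every library. In rods with a share over 1.5%, short members were higher than in rods under 0.5% of the same library by a median log2 of 0.50 in the control (16 of 17 higher), 0.22 at 2 weeks (16 of 17) and 0.50 at 4 weeks (17 of 17). The long members differed by -0.08, -0.08 and -0.02. No value over other short or long genes stands beside these, so they are not read as particular to the members. Short members took 3.95%, 3.45% and 3.42% of the UMIs of rods over 1.5%, and 2.49%, 2.72% and 2.27% under 0.5%. Of the control rods 1772 were over 1.5% and 995 under 0.5%, whereas at 2 weeks 762 were over and 2984 under, and at 4 weeks 1118 and 3068.

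Compared within rods of like mitochondrial share, the short members were higher than the control at 2 weeks in rods under 1.5%, and lower at 4 weeks in every bin. In the bin of 0.5 to 1.5%, which held 1332, 1024 and 1744 rods, the short members had a median log2 ratio of 0.19 at 2 weeks, with 4 of 17 below the control, and -0.13 at 4 weeks, with 14 of 17 below. Under 0.5% the medians were 0.21 and -0.12. Over 1.5% they were -0.12 and -0.19. The long members had medians of -0.04 and -0.02 in the middle bin. The 2-week direction of the short members thus differed between the bins, while at 4 weeks they were lower in all 3 bins. No value over other short or long genes of the same bins stands beside these, so they are not read as particular to the members.

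In the same bin of 0.5 to 1.5% the members with large differences kept them to unequal degrees. Sag was at 1.46 times the control at 2 weeks, Mpp4 at 1.35 and Rpgrip1 at 1.31, as over all rods. Gucy2f was at 0.532 and Rp1 at 0.729, both low at 2 weeks as over all rods, and at 1.05 and 0.994 at 4 weeks. Rcvrn was at 1.10 at 2 weeks and 0.810 at 4 weeks, above the control at 2 weeks here and below it over all rods.

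**Figure D3:**
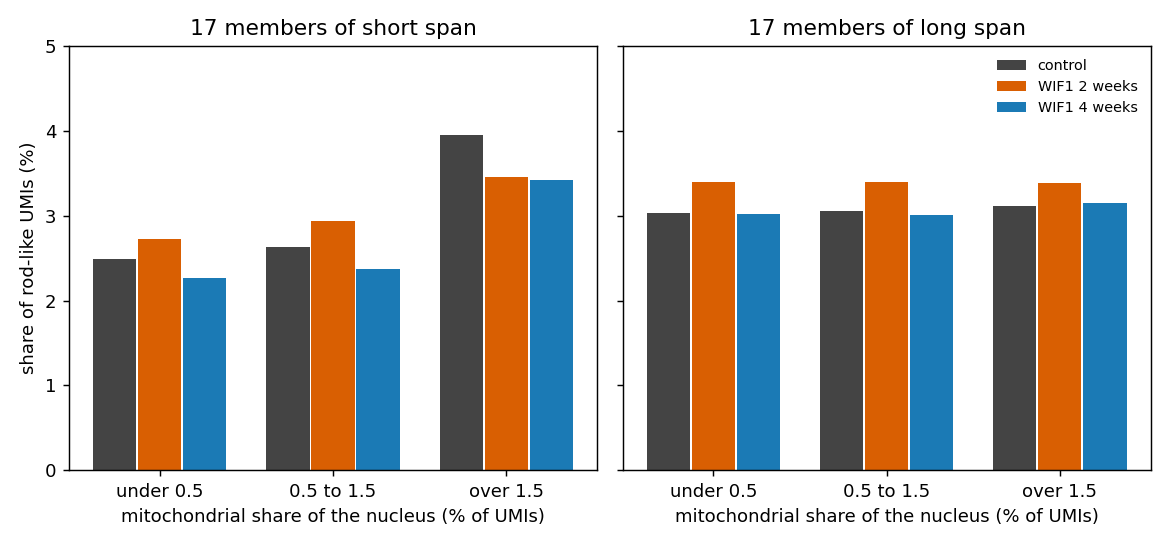
Share of rod-like UMIs (%) taken by the 17 short members (left) and the 17 long members (right) in rods grouped by mitochondrial share, with 1 bar per library and no error bars. The short members take more in rods over 1.5% than in rods under 0.5% in each library, as in the control with 3.95% against 2.49%, and the long members take about the same in all bins.

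Nuclei of other classes also held member UMIs, which gives a measure of RNA that is free or from mixed nuclei. Bipolar-like nuclei had a median over members of 10.6% of the rod CPM in the control library, 5.98% at 2 weeks and 7.49% at 4. The ratio was higher for short members (13.4%, 7.06% and 9.90%) than for long ones (7.89%, 4.32% and 5.45%). Impg1 was lowest in bipolar-like nuclei of each library, at 4.15%, 2.09% and 2.91%, and Unc119 highest, at 37.9%, 25.7% and 35.7%. Unc119 is also expressed outside photoreceptors, and whether its RNA there was free or made in bipolar cells was not tested. Müller-like nuclei gave 12.7%, 3.93% and 7.84%, with 13.3%, 4.75% and 8.83% for short members and 12.5%, 2.78% and 6.502% for long ones. The control was highest and the 2-week library lowest in both classes.

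Amacrine-like nuclei had a different pattern, with medians of 22.4%, 9.91% and 49.8% of the rod CPM. Their short members were at 21.7%, 10.3% and 46.1% and their long members at 22.4%, 9.56% and 56.2%, so here the long members were higher in the control and at 4 weeks. Endothelial-like nuclei, 68, 55 and 80 in number, had the same order of libraries as amacrine-like ones, with medians of 17.3%, 15.5% and 27.6%, of 19.6%, 15.3% and 31.5% for short members and of 15.5%, 15.6% and 27.1% for long ones. Per nucleus the amacrine-like class held 78.6%, 32.7% and 274% of the member UMIs of a rod, and the 4-week value rests on 98 nuclei. Prom1 stood apart from the other members in amacrine-like nuclei of each library, at 53.0%, 104% and 76.7%. Cone-like nuclei held the members at a median of 57.5%, 49.0% and 53.6%, from 5.58% for Gucy2f to 217% for Aipl1 in the control. Members that cones also use, such as Aipl1, Guca1a (200.5%), Cdhr1 (152%) and Tulp1 (136%), were above the rod level in control cones. Other cascade members differed: Gnat1 (16.4%), Pde6b (8.43%) and Cnga1 (9.30%) were far below the rod level. Gngt1 (57.7%) and Pde6g (76.15%) were nearer to it.

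**Figure D4:**
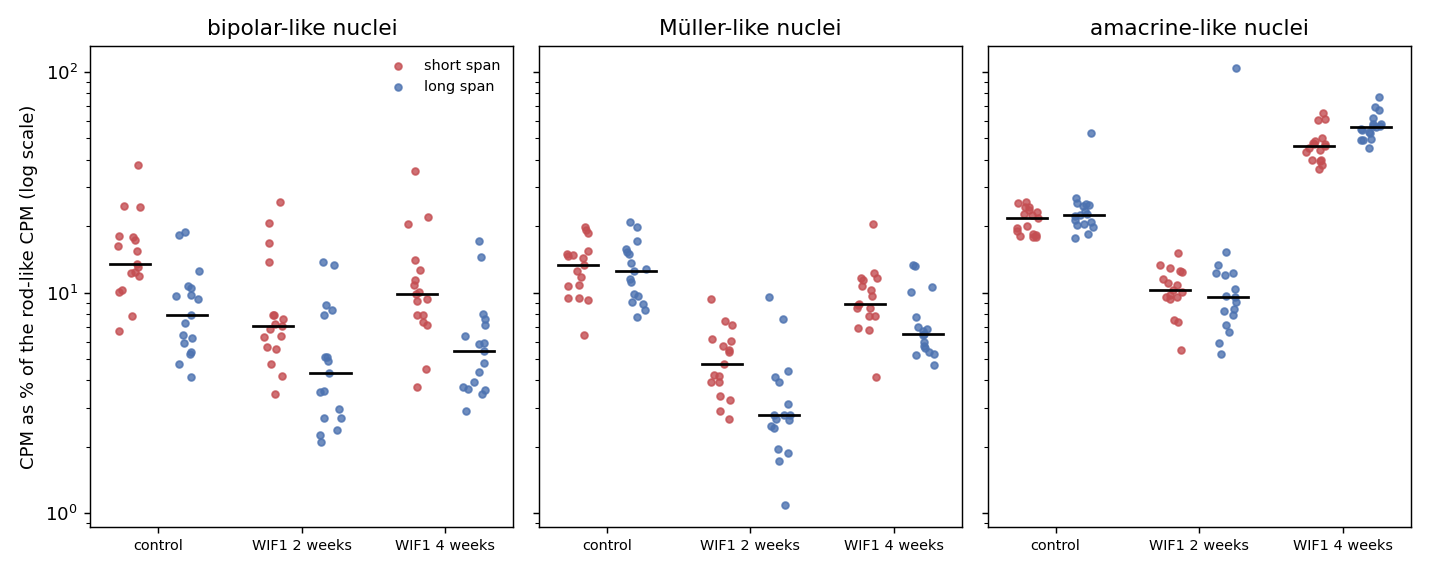
CPM of each member in bipolar-like, Müller-like and amacrine-like nuclei as a percentage of its CPM in rod-like nuclei of the same library (log scale), with short members in red, long members in blue and black lines at the medians. In bipolar-like nuclei the short members lie above the long ones in each library, with control medians of 13.4% and 7.89%, and in amacrine-like nuclei the 4-week library is highest.

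The member UMIs found per bipolar-like nucleus were also subtracted from each rod. Bipolar-like nuclei were deeper than rods, with medians of 3768, 2345 and 3269 UMIs, and the subtraction took off 37.4%, 22.55% and 24.97% of the member UMIs of rods. After it the member share of rod UMIs was 3.95%, 4.87% and 4.18%, lowest in the control. Unc119 was left at or below 0 in the control and at 4 weeks. The short members then had medians of 0.29 at 2 weeks and 0.03 at 4 weeks, and the long ones 0.10 and 0.12, so the direction of the members as a whole depended on how this background was treated.

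The share of rods with at least 1 UMI of a member was compared at equal depth. With each nucleus thinned to 500 UMIs, the median over members was 45.8% of rods in the control library, 49.7% at 2 weeks and 43.7% at 4, and the range over members in the control ran from 9.71% to 95.6%. Without thinning the medians were 73.6%, 62.9% and 67.9%, with the deepest library highest. In bipolar-like nuclei thinned alike the medians were 5.59%, 3.22% and 3.62%. Pde6g was found in 61.7%, 64.2% and 49.7% of rods, lowest at 4 weeks like its CPM, against 16.99%, 9.16% and 8.93% of bipolar-like nuclei. At 2 weeks its share and that of the median member were above the control while the CPM were below it, so no order of these libraries is read from the shares, and the cause was not tested. Rom1 was found in 71.3%, 62.5% and 61.7% of rods, Gngt1 in 74.7%, 70.3% and 66.1%, and Rpgrip1 in 74.2%, 84.1% and 77.1%. The bipolar-like shares were 26.2%, 22.2% and 20.1% for Rom1, 28.8%, 20.9% and 19.3% for Gngt1, and 9.86%, 11.8% and 7.66% for Rpgrip1.

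Rods with RNA of injury-response genes (at least 1 UMI of Edn2, Cebpd or Fgf2) kept the members at nearly the level of other rods. They numbered 113 of the control rods (2.76%), 424 of those at 2 weeks (8.89%) and 203 at 4 weeks (3.42%). Their median log2 ratio over the other rods of the same library was 0.01, -0.08 and -0.06, with 17, 25 and 28 of 34 members lower. No value over all genes stands beside these counts, so they are not read as particular to the members. At 2 weeks Fscn2 was furthest below (-0.44) and Impg2 furthest above (0.67). These rods were slightly deeper than the others, with medians of 752 against 686 UMIs at 2 weeks, and the part of depth in this was not tested.

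A further list of 51 phototransduction, ciliary and photoreceptor genes that are not members, such as Abca4, Rdh12 and Cep290, had median ratios near the control. At 2 weeks 26 of the 48 measured were higher and 22 lower, with a median log2 ratio of 0.01, and at 4 weeks 34 of 50 were higher and 16 lower, with a median of 0.09. Rdh12, Ppef2 and Ankrd33 of this list were also among the markers that named the rod class. Their levels in rods are therefore not independent of that naming. At 2 weeks 1 of 48 was past 1.5-fold higher and 0 lower. It was Nphp4, a gene of the ciliary transition zone, with 256, 302 and 351 rod UMIs or 46.5, 82.6 and 48.7 CPM. At 4 weeks 2 of 50 were past 1.5-fold higher and 0 lower: Slc24a2, which had 16 control UMIs and 33 at 4 weeks, and Kif17, which had 22 and 47, and both intervals included 1. Abca4, the disc retinoid transporter, was at 1537, 1407 and 1693 CPM. Cep290 stood further from the control, at 463, 334 and 553 CPM, with ratios of 0.720 (0.672 to 0.771) and 1.19 (1.14 to 1.26). Its 4-week level was 1.66 times the 2-week level (1.555 to 1.769).

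Open chromatin at the members' promoters was slightly lower in both WIF1 libraries. Counts in peaks within 1000 bp of a gene start were summed over rods and scaled to all promoter counts, and each of the 34 members had such a peak in all libraries. At 2 weeks 29 of 34 were below the control and 5 above, with a median log2 ratio of -0.19 (-0.26 to -0.07), beside -0.06 over 14125 genes. At 4 weeks 26 were below and 8 above, with a median of -0.13 (-0.19 to -0.06), again beside -0.06. Set against 2 weeks, the 4-week promoters were higher for 26 of 34 members, by a median of 0.09, beside 0.0046 over 14300 genes. Here 0 members were past 1.5-fold lower (4.17% of genes) and 0 past it higher (5.4%). The share of all genes on either side of 0 was not computed for promoters, so the counts of members on each side lack a background. Peaks were called in each library separately, 54429, 103911 and 75686 in all, and those of the members covered 42924, 43495 and 43373 bp. They held 1351, 2561 and 3365 raw counts per kb. These are not scaled to the total promoter counts of rods, which were 9866846, 21139527 and 25804585. For 5 members (Cnga1, Rom1, Reep6, Prcd and Prom1) the start of another gene lay near the same peaks.

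Without regard to peak length, Tulp1 was the 1 member of 34 past 1.5-fold, lower at both times, where 10.9% of genes were past it at 2 weeks and 8.54% at 4 weeks. Its promoter was at 162 CPM in the control library, 96.2 at 2 weeks and 105 at 4. In the control 2 peaks covered 963 bp there, against 1 peak of 710 bp at 2 weeks and 725 bp at 4 weeks, and per kb of peak the log2 ratios were -0.31 and -0.22. Gnb1 had 1 peak of 919 bp in the control, against 2 peaks covering 1609 bp at 2 weeks and 1628 bp at 4 weeks. Its log2 ratios were -0.10 and 0.09, and per kb of peak -0.91 and -0.74. Per kb, Tulp1 was thus inside 1.5-fold and Gnb1 past it lower, so this result depended on the separate peak calls. Past 1.5-fold higher were 0 members at either time, against 5.45% and 1.71% of genes. Aipl1, shown above with both motifs, was at 97.5, 72.9 and 71.4 CPM, low in both WIF1 libraries. Rp1 was at 137, 96.4 and 105 CPM and Fscn2 at 84.3, 60.8 and 73.2, lowest at 2 weeks.

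RNA and promoter ratios lay on the same side of 0 for 17 of 34 members at 2 weeks and 16 of 34 at 4 weeks. The same share was not computed over all genes, so these counts lack a background and are not read as particular to the members. Sag was higher in both measures at 2 weeks: its promoter was at 231 CPM in the control library, 263 at 2 weeks and 267 at 4, while its RNA was high at 2 weeks alone. Rom1, with both RNA ratios low, had promoter counts of 322, 324 and 327 CPM, nearly level over the 3 libraries. Gucy2f had promoter counts of 40.4, 32.4 and 35.5 CPM, low in both WIF1 libraries, while its RNA was low at 2 weeks and high at 4 weeks. Rpgrip1 and Mpp4, with more RNA at 2 weeks, had fewer promoter counts, with log2 ratios of -0.22 and -0.27.

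**Figure D5:**
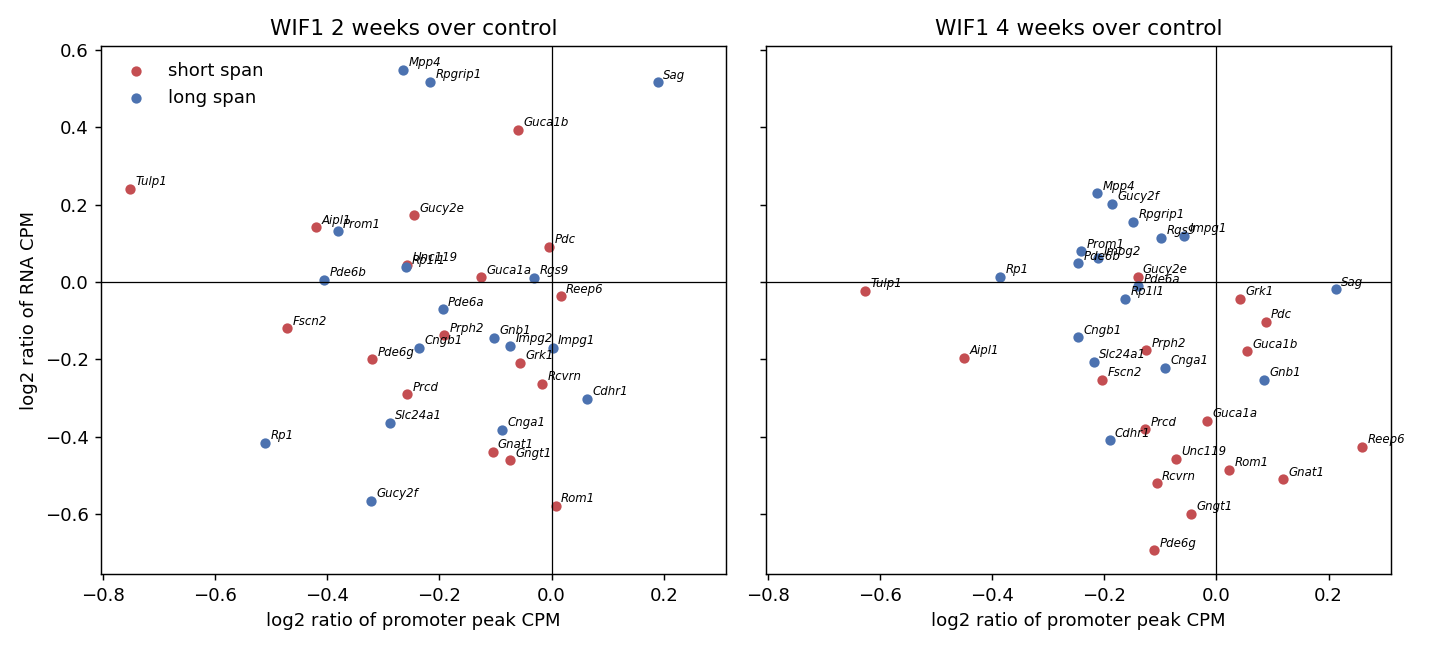
Log2 ratio of RNA against log2 ratio of promoter peak counts in rod-like nuclei, each over the control, with 1 point per member, at 2 weeks (left) and 4 weeks (right). Most points lie left of 0, with Tulp1 furthest at -0.75 and -0.63, and Sag lies to the right of 0 at both times.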

How the data were processed

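The deposited files hold raw counts for each barcode (UMIs of genes and ATAC counts of peaks), per the file headers. Cell Ranger ARC 2.0.1 and mm10 are named in the submitters' processing notes, along with Seurat 5.0.1 and Signac 1.12.0, without their roles. Peaks differ between the libraries' deposited lists. The files give gene starts and no spans, so spans came from RefSeq for the same build (26259 genes matched by symbol).

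Nuclei with at least 500 UMIs, 300 genes and at most 10% mitochondrial UMIs were kept: 7683, 9901 and 9637 (control, 2 weeks, 4 weeks). Doublet scores (Scrublet in scanpy 1.11.5) were cut at an expected 0.8% per 1000 barcodes, calling 511, 1053 and 716, since the automatic threshold called 0, 316 and 0. The 3 libraries were clustered together without integration (2000 variable genes without the members, 30 principal components, 15 neighbours, resolution 1). A class needed 3 enriched markers and no lead by another class. Clusters that held 7 or 8 of 8 rod markers stayed unnamed where a marker of another class was among their 10 leading genes, including an immunoglobulin-rich cluster of 22, 1064 and 149 nuclei. In all 371, 1352 and 404 nuclei stayed unnamed.

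UMIs were summed over rods and given as CPM with exact Poisson intervals. Ratios have conditional binomial intervals and shares exact binomial ones. A gene was measured with at least 30 UMIs in the higher library, which all 34 members had, and intervals of medians are order-statistic intervals over members. On simulated counts with 200 of 32285 genes changed, 94% of intervals covered the true ratio. All members by symbol, and those of the further list past 1.5-fold, could be named, so Abca4, Rdh12 and Cep290 are examples chosen after their values were seen. The members and lists were chosen with earlier results of these data known.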

Additional observations from a re-analysis of the deposited data

Results flagged for a closer look

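For 6 members the counting intervals of the 2-week and 4-week ratios to the shared control lay on opposite sides of 1. The same count was not made over all genes, and intervals are narrow for abundant genes, so it is not read as particular to the members. The difference between the times was not tested, as each time is 1 library. Sag, Guca1b, Aipl1 and Pdc were above the control at 2 weeks and below it at 4 weeks, with 4-week levels of 0.690, 0.672, 0.792 and 0.875 times the 2-week level. Gucy2f and Impg1 were below it at 2 weeks and above it at 4 weeks, with 4-week levels of 1.70 and 1.22 times the 2-week level. These are values over all rods. In rods with a mitochondrial share of 0.5 to 1.5%, the ratios at 2 and 4 weeks were 1.46 and 0.974 for Sag, 1.38 and 0.934 for Guca1b, 1.21 and 0.915 (0.835 to 1.002) for Aipl1, 1.24 and 1.04 for Pdc, 0.532 and 1.05 (0.957 to 1.16) for Gucy2f, and 0.807 and 0.983 for Impg1. There Sag and Guca1b alone had intervals on opposite sides of 1. Over all rods, for Sag the 4-week interval ended just under 1, at 0.999.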

How the results depend on the processing

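No paired analysis was possible because each group is 1 library and the labels give no replicate numbers. Of the alternatives run on the summary values, 121 stayed within the spread of the main value and 41 moved. With rods of at most 1% mitochondrial UMIs, the 2-week median over members was 0.070 and the short-member medians were 0.21 at 2 weeks and -0.13 at 4 weeks; 1 member (Gucy2f) was past 1.5-fold lower at 2 weeks and 0 at 4 weeks. With bipolar-like UMIs per nucleus taken off, the medians were 0.22 (2 weeks) and 0.081 (4 weeks) over members, 0.29 and 0.033 over short and 0.10 and 0.12 over long members; 3 members (Sag, Guca1b and Mpp4) were past 1.5-fold higher at 2 weeks and 0 lower at 4 weeks, the member share was 3.95%, 4.87% and 4.18%, and single members kept their direction in 38 of 66 values; among those that turned, Gngt1 at 4 weeks went from -0.60 to 0.019. Rods of the Cmah cluster alone (0.10) and of a further cluster led by Abca13 and Slc22a29 alone (0.045) had 2-week medians above 0.

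Past 1.5-fold lower at 2 weeks were 2 members (Rom1 and Gucy2f, just inside 1.5-fold before) with rods taken by marker score, with totals without mitochondrial genes, Malat1, Gm42418 and AY036118, with scaling by the median ratio, or with the unnamed rod-marker clusters counted; it was 1 (Gucy2f) with at least 1000 UMIs per nucleus or thinning to 500. At 4 weeks 1 (Pde6g) was past it with called doublets kept or thinning, and 0 were past 2-fold. At a ratio of 5 to 4 the counts were 7 lower and 4 higher at 2 weeks and 10 lower at 4 weeks. Totals without those genes gave shares of 6.81%, 6.68% and 5.93%, and counting the unnamed clusters gave 6.245% at 2 weeks and 5.55% at 4 weeks. Keeping called doublets raised the bipolar-like medians to 14.8%, 10.25% and 12.3%. Thinning to 1000 UMIs left out 1197, 4213 and 2731 rods and gave shares of rods with a UMI of 70.0%, 72.7% and 66.1%. The alternatives on single clusters, on the unnamed clusters and on the mitochondrial bin in every library were chosen after seeing the data. Depth limits the 2-week library most.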
